A study of Arabidopsis thaliana with 8 samples.

Results

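The genes described here are 10 Arabidopsis genes that form 5 pairs of chromosomal neighbours, all with lower signals in the accession Cal-0 than in Col-4. The pairs are AT1G23130 with AT1G23140 and AT1G67860 with AT1G67865 on chromosome 1, AT2G32150 with AT2G32160 on chromosome 2, and AT3G19515 with AT3G19520 and AT3G60980 with AT3G61010 on chromosome 3. They were picked because their measured values were lower in Cal-0, so the accession difference of these genes is given below as a description and no test is read from it. They are 10 of 13355 genes that have a probe set of a single gene here. In 4 pairs no annotated protein-coding gene lies between the members, and in the pair AT3G60980 and AT3G61010 a single gene, AT3G60990, lies between them.

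Whole plants of 2 accessions at developmental stage 3.90 were profiled on ATH1 arrays, whose probes were designed on Columbia sequence, so a signal measures RNA that binds these probes. The Cal-0 group, labelled calcicole, which means at home on limy ground, and the Col-4 group, labelled non-calcicole, had 4 arrays each. Sand was the substrate and 23 degrees Celsius the temperature for all plants, which were fed Long Ashton nutrients at 0.5 strength with 1 mM calcium chloride, and had been stratified at 4 degrees Celsius for 48 hours. The labels name neither mutation nor transgene, give no plant age beyond the stage, and do not say that replicates came from separate plants or cultures, so a p-value here measures only how these arrays vary, and that variation may be technical.

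Genes that lie side by side can share regulatory sequence or a stretch of chromatin, and some arise from each other by tandem duplication, so neighbours are often asked whether they are expressed together. Natural accessions of Arabidopsis differ in sequence and in gene content, and expression differences between them are frequent in defence and metabolic gene families. AT1G23130 encodes a protein of the Bet v 1 or major latex protein family, whose fold encloses a cavity for hydrophobic ligands. AT1G23140 encodes a C2-domain protein of the CAR family, members of which bind membrane phospholipids in a calcium-dependent way and bring abscisic acid receptors to the membrane. AT2G32150 encodes a hydrolase of the haloacid dehalogenase superfamily, which includes many phosphatases of small metabolites, and AT2G32160 a methyltransferase of the type that uses S-adenosylmethionine. AT3G60980 encodes a protein of the tetratricopeptide-repeat superfamily, whose repeats form surfaces for binding partners. No role is given here for the other 5 members.

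Signals are MAS5 intensities in arbitrary units, and differences are Cal-0 minus Col-4 on the scale of log2(signal + 16), which understates the change of weak signals. Array medians lay between 44.0 and 50.1, and the number of arrays limits the precision. Arrays 1 to 4 of the titles held replicates 1 and 2 of both accessions, and arrays 5 to 8 replicates 3 and 4. RNA quality was read from the GAPDH and actin control probe sets, whose 3′ signal over 5′ signal averaged, as a log2 ratio, 1.70 and 1.52 in Cal-0 against 0.955 and 0.927 in Col-4 in arrays 1 to 4, and 1.88 and 1.96 in Cal-0 against 1.66 and 2.39 in Col-4 in arrays 5 to 8. Organ markers were few, since 1 of 12 leaf, 2 of 9 root and 0 of 5 flower markers had a single-gene probe set. The leaf marker LHCB4.1 lay between 4771 and 7089.6 in Cal-0 and between 5515 and 9487 in Col-4, and the summed root markers PYK10 and EXPA7 between 435 and 1162 in Cal-0 and between 352 and 973 in Col-4, overlapping in both cases and none called. In whole plants, fewer cells of a type and less RNA per cell cannot be told apart.

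AT1G23130 had signals of 114, 102, 121 and 161 in Cal-0 replicates 1 to 4, against 1586, 2439, 2279.8 and 1617 in Col-4. The lowest Col-4 array was 9.87 times the highest Cal-0 array, the widest separation among the 10 genes. The log2 difference was -3.82 (standard error 0.19), with means of 124 ± 25.6 (SD) over the 4 Cal-0 arrays against 1980.5 ± 442 over the 4 Col-4 arrays. Its neighbour AT1G23140, the calcium-dependent membrane-binding protein gene, had 54.2, 36.1, 85.8 and 35.9 in Cal-0 against 126, 119, 243.5 and 103 in Col-4. Here the accessions came close, the lowest Col-4 array being 1.2 times the highest Cal-0 array, and replicate 3 was the highest array of both accessions. The log2 difference of AT1G23140 was -1.23 (standard error 0.27), so Cal-0 stood at 6.27% of the Col-4 mean for AT1G23130 and at 35.9% for AT1G23140.

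AT1G67860 had 114, 88.7, 88.7 and 111 in Cal-0 replicates 1 to 4, against 306, 282, 397 and 373.5 in Col-4. Its arrays were tight within each accession and well apart between them, with a log2 difference of -1.60 (standard error 0.15). AT1G67865 had 33.8, 44.5, 36.8 and 102 in Cal-0 against 398, 559, 658 and 1030.5 in Col-4. Replicate 4 was its highest array in both accessions, and the groups still did not overlap. The log2 difference was -3.28 (standard error 0.31), the second member of this pair having the larger one. The spread of AT1G67865 was also wider, with a standard deviation of 59.3% of the mean in Cal-0 and 40.6% in Col-4, where AT1G67860 had 13.8% in Cal-0.

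AT2G32150, the hydrolase gene, had 53.1, 43.7, 64.5 and 56.8 in Cal-0 against 126, 86.9, 98.2 and 115 in Col-4. Cal-0 kept 51.1% of the Col-4 mean, with a log2 difference of -0.80 (standard error 0.15). AT2G32160, the methyltransferase gene beside it, had 16.7, 18.5, 10 and 16.1 in Cal-0 against 137, 192.5, 147.5 and 220.3 in Col-4. Every Col-4 array was at least 7.42 times the highest Cal-0 array, and the log2 difference was -2.59 (standard error 0.17). Cal-0 signals of AT2G32160 were so low that the pseudocount set the size of its difference, at -3.43 with a pseudocount of 1 and -1.77 with 50.

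AT3G19515 had 23.3, 9.5, 12.4 and 11.6 in Cal-0 against 79.2, 68.2, 75.2 and 83.1 in Col-4. The groups lay far apart, with a log2 difference of -1.63 (standard error 0.16), which was -2.42 with a pseudocount of 1 and -0.98 with 50. A second probe set of AT3G19515 did not show this: it averaged 7.20 ± 3.97 in Cal-0 and 8.78 ± 7.03 in Col-4, its accessions overlapped, and its mean was below the minimum for testing. AT3G19520 had 72.8, 59.6, 73.4 and 67.5 in Cal-0 against 118, 108, 98.3 and 139 in Col-4. Its difference of -0.64 (standard error 0.14) was the smallest of the 10, and the lowest Col-4 array was 1.34 times the highest Cal-0 array.

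AT3G60980, the repeat-protein gene, had 20, 27.5, 25.2 and 12.8 in Cal-0 against 84.3, 67.6, 92.2 and 106 in Col-4. Its log2 difference was -1.47 (standard error 0.17), which was -2.02 with a pseudocount of 1 and -0.94 with 50. AT3G61010 had 19.2, 29.8, 15.9 and 20 in Cal-0 against 46.2, 64.5, 68.6 and 101 in Col-4. Its log2 difference was -1.19 (standard error 0.19), and -0.74 with a pseudocount of 50. A second probe set of AT3G61010, with a mean over the arrays of 23.95 and so not tested, averaged 17.1 ± 6.29 in Cal-0 and 30.8 ± 2.85 in Col-4, again without overlap but with a smaller difference of -0.52. RefSeq lists AT3G61000 as a synonym of AT3G61010.

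**Figure D1:**
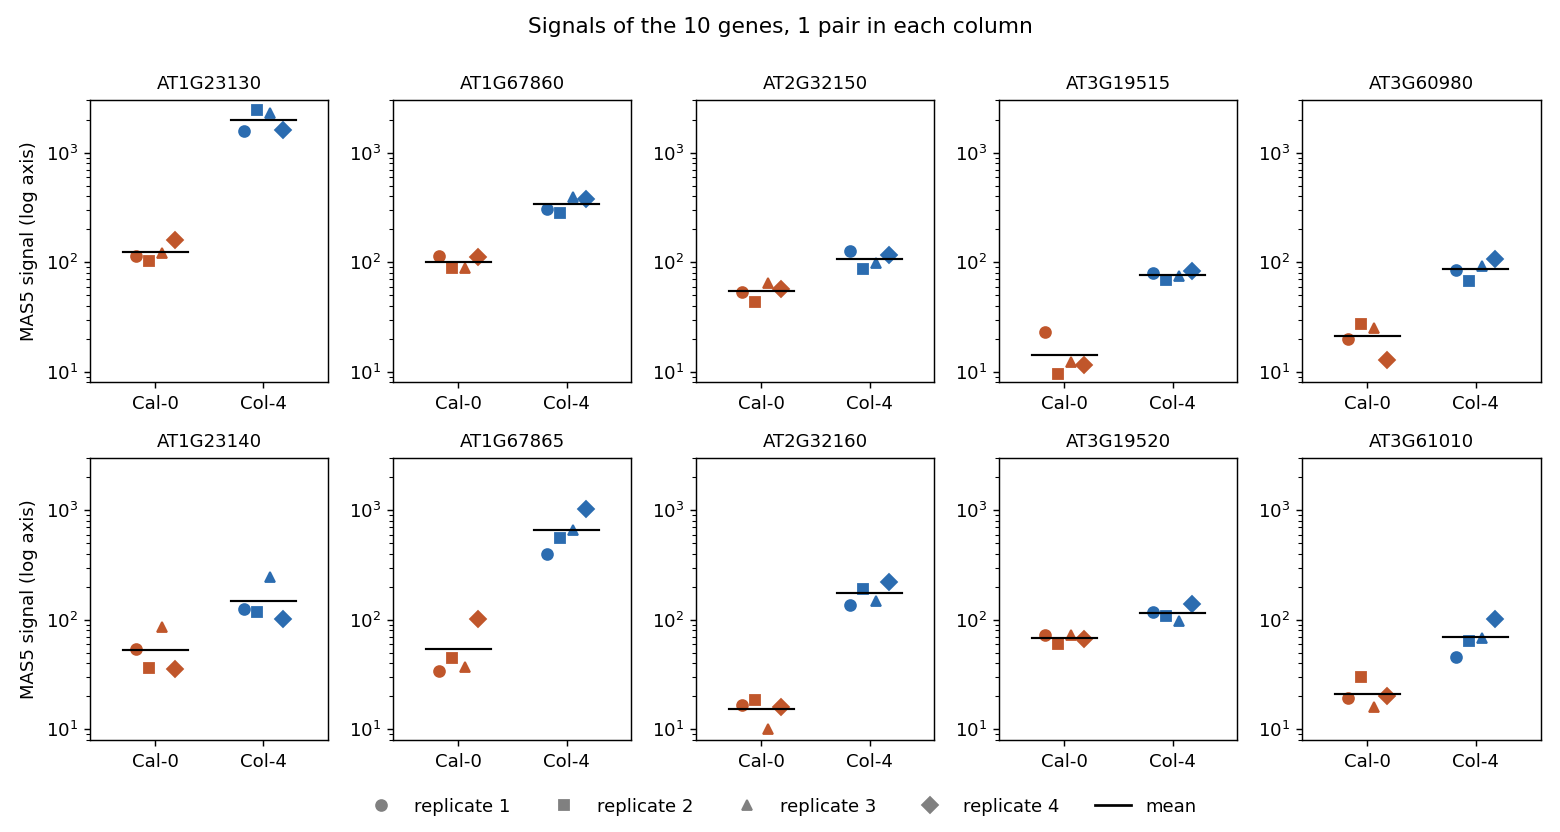
MAS5 signal (log axis) of the 10 genes on the 4 Cal-0 arrays (left) and the 4 Col-4 arrays (right), with 1 pair in each column, the symbol giving the replicate number and the bar the mean of 4 arrays. All Cal-0 points lie below all Col-4 points in each panel, by the widest margin in AT1G23130 (124 against 1980.5) and by the narrowest in AT1G23140.

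All 10 genes passed the filter on low signals (a mean of at least 25 over the 8 arrays), but 4 of them, AT2G32160, AT3G19515, AT3G60980 and AT3G61010, had a Cal-0 mean under 25 and passed through their Col-4 signals. The 10 were called lower in Cal-0 by limma at a Benjamini-Hochberg adjusted p under 0.05, as their choice required. Over all 15165 tested probe sets 2.75% were called lower in Cal-0, 1.54% higher and 4.29% in either direction, or 8.57% when the replicate block was added. The accessions did not overlap in any of the 10, where 5.43% of all tested probe sets were without overlap and lower in Cal-0. The median difference of the members was -1.54, against 0.03 over all tested probe sets. AT1G23140 and AT3G19520 stood nearest the threshold among the members. Just outside it, the adjacent genes AT1G10640 and AT1G10650 differed by -0.94 and -0.53, and AT1G10640 had a limma adjusted p of 0.051. Without Cal-0 replicate 1, 2 or 4, or Col-4 replicate 1 or 2, neither AT1G23140 nor AT3G19520 was called, with limma adjusted p between 0.0504 and 0.0742. AT1G23140 was not called either when no filter was set (limma adjusted p = 0.0644). The other 8 were called in every alternative that tested them. The alternatives hold the contrast that chose the genes, so these calls are a description as well.

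The size of the difference was unequal inside 4 of the 5 pairs. The gap between the log2 differences of the members was 2.59 for AT1G23130 and AT1G23140, 1.79 for AT2G32150 and AT2G32160, 1.68 for AT1G67860 and AT1G67865, and 0.99 for AT3G19515 and AT3G19520. In these pairs the smaller difference was 0.31 to 0.49 times the larger on the log2 scale. For AT3G60980 and AT3G61010 the gap was 0.29 and the smaller difference 0.80 times the larger. The same contrast can be read inside each array, from the log2 ratio of the first member to the second. For AT1G23130 over AT1G23140 this ratio was 1.06 ± 0.56 in Cal-0 against 3.65 ± 0.44 in Col-4 (SD over 4 arrays), and for AT1G67860 over AT1G67865 it was 0.82 ± 0.54 in Cal-0 against -0.86 ± 0.45 in Col-4. For AT2G32150 over AT2G32160 it was 1.17 ± 0.35 in Cal-0 against -0.62 ± 0.40 in Col-4, and for AT3G19515 over AT3G19520 -1.50 ± 0.22 in Cal-0 against -0.51 ± 0.14 in Col-4. The accessions did not overlap in these 4 ratios. They overlapped for AT3G60980 over AT3G61010, at 0.0013 ± 0.29 on Cal-0 arrays against 0.29 ± 0.30 on Col-4 arrays. All 5 ratios are built from the values that chose the genes, and no share over other neighbouring pairs was counted, so they are a description.

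Which member differed more was the same in all 17 alternatives for both chromosome 1 pairs and in all 16 that kept both members for each of the other 3 pairs. Arrays 1 to 4 alone gave the same order, as did arrays 5 to 8 alone. Where the ratio of the members did not overlap between accessions, neither leaving out an array nor splitting the arrays this way could reverse it. Added blocks and other filters left the differences as they were, so they could not change the order of any pair. The order comes from the values that chose the genes and is a description. The gap of AT3G19515 and AT3G19520 ran from 0.50 with a pseudocount of 50 to 1.68 with a pseudocount of 1, and that of AT2G32150 and AT2G32160 from 1.19 to 2.48.

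**Figure D2:**
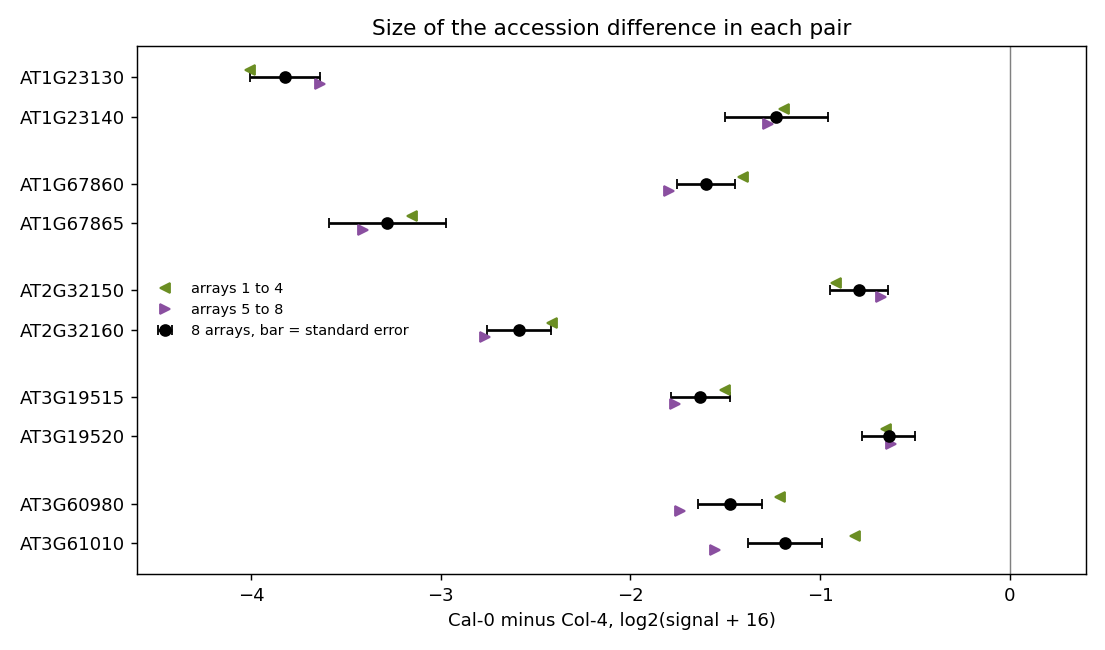
Cal-0 minus Col-4 on the scale of log2(signal + 16) for each of the 10 genes, grouped by pair. Circles with bars are the estimate over 8 arrays with its standard error, and triangles the differences within arrays 1 to 4 and within arrays 5 to 8. AT1G23130 lies 2.59 beyond its neighbour, while AT3G60980 and AT3G61010 lie 0.29 apart.

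The 10 differences were negative in both sets of arrays, as the lack of overlap between the accessions required. In arrays 1 to 4 they ran from -4.01 in AT1G23130 to -0.65 in AT3G19520, and in arrays 5 to 8 from -3.64 in AT1G23130 to -0.62 in AT3G19520. The difference was larger in arrays 5 to 8 in 7 of the 10 genes, by 0.74 for AT3G61010 (-1.55 against -0.82, standard error of the change 0.32) and by 0.53 for AT3G60980 (-1.74 against -1.21, standard error 0.30). A share of this kind over all tested probe sets was not counted. The change in AT3G61010 had an unadjusted limma p of 0.0451 and an adjusted p of 0.999, and no member passed this test of the accession difference between array sets. None of the 15165 probe sets passed it (0.0%), with 4.0% at an unadjusted p under 0.05. The fit that called the members had no array set term, so a large change between sets worked against being chosen. The 3′ to 5′ ratios of the accessions overlapped in arrays 5 to 8 and not in arrays 1 to 4. Whether RNA quality bears on the differences was not tested. With the 3′ to 5′ ratio as a covariate, chosen after seeing the data, all 10 kept their direction and their call. They ran from -3.80 for AT1G23130 to -0.69 for AT3G19520, and 520 of the 15165 probe sets were called lower in that fit. It holds the contrast that chose the genes, so these values are a description.

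The array sets themselves, arrays 5 to 8 against arrays 1 to 4, gave a contrast whose direction had no part in the choice of the genes. Its size could, because the fit behind their calls had no array set term, so a shift between sets widened the residual spread. A low count of members passing here is therefore partly a product of the choice. AT1G67865 had the largest set difference of the members, at 0.65 (standard error 0.25, limma adjusted p = 0.116), higher in arrays 5 to 8 in both accessions on average. Its neighbour AT1G67860 differed by 0.18 (limma adjusted p = 0.412). No member passed, against 8.03% of all tested probe sets, and AT1G67865 was the 1 member of 10 at an unadjusted p under 0.05, where 28.5% of all tested probe sets lay. The differences of the 10 ran from -0.05 to 0.65 and 8 of them were positive. The share of positive differences over all tested probe sets was not counted, and the 10 genes share the same arrays. The members of 3 pairs had differences of the same sign. The signs were opposite for AT2G32150 at 0.13 and AT2G32160 at -0.04, and for AT3G19515 at -0.05 and AT3G19520 at 0.06, all within their standard errors. Without Cal-0 replicate 3, AT1G67865 passed (difference 0.91, limma adjusted p = 0.0342).

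Whether the members of a pair vary together was measured on what is left inside the accessions, the deviation of each array from its accession mean. AT3G19515 and AT3G19520 had the highest correlation, r = 0.53 over 8 arrays (Spearman's rho 0.60), with deviations of the same sign in 7 of the 8 arrays. It was 0.51 for AT1G67860 and AT1G67865 (rho 0.24), where 7 of 8 arrays also shared the sign. AT3G60980 and AT3G61010 were at 0.46 (rho 0.45), again with 7 of 8, and AT1G23130 and AT1G23140 at 0.22 (rho 0.12) with 4 of 8. AT2G32150 and AT2G32160 ran against each other, at -0.47 (rho -0.57), with 3 of 8 arrays sharing the sign. Their r was -0.88 within Cal-0, where AT2G32160 had signals of 10 to 18.5, and -0.27 within Col-4. The Cal-0 means of AT3G19515, AT3G60980 and AT3G61010 were also under 25, so the Cal-0 deviations of these genes rest on weak signals.

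None of the 5 correlations passed the exact two-sided permutation test over the 576 orders of arrays within accessions. The test takes the arrays of an accession as exchangeable, and its p-values are exact only if they are. Over all tested probe sets, 28.5% differed between array sets at an unadjusted limma p under 0.05. Same-numbered arrays of the accessions also deviated together, so 8 deviations may count for fewer. The exact p of r was 0.106 for AT3G19515 and AT3G19520, 0.271 for AT1G67860 and AT1G67865, 0.28 for AT3G60980 and AT3G61010, 0.29 for AT2G32150 and AT2G32160, and 0.632 for AT1G23130 and AT1G23140. Adjusted over the 5 pairs these exact permutation p-values became 0.362 for 4 pairs and 0.632 for AT1G23130 and AT1G23140. The exact permutation p-values of rho were 0.142, 0.608, 0.299, 0.253 and 0.847 in the same order of pairs, between 0.498 and 0.847 after adjustment. Depending on the pair, an observed correlation of 0.62 to 0.83 in size was needed for an unadjusted exact p under 0.05. To pass after adjustment over the 5 pairs, it had to be at least as large. Co-variation of moderate strength could therefore go undetected with these arrays. A miss does not show that the members vary independently.

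The correlations rested on few arrays. Without the 2 arrays farthest from the median of the first member, r became 0.92 for AT1G23130 and AT1G23140 (without Col-4 replicate 2 and Cal-0 replicate 4), 0.60 for AT1G67860 and AT1G67865, -0.26 for AT2G32150 and AT2G32160, 0.73 for AT3G19515 and AT3G19520 and 0.79 for AT3G60980 and AT3G61010. Within array sets the picture was uneven. Each set holds 4 arrays with 2 of each accession, and the deviations of those 2 mirror each other. An r within a set therefore rests on 2 differences and is easily large in either direction. For AT3G19515 and AT3G19520 r was 0.98 in arrays 1 to 4 and 0.99 in arrays 5 to 8. For AT1G67860 and AT1G67865 it was -0.77 in arrays 1 to 4 and 0.70 in arrays 5 to 8, and for AT2G32150 and AT2G32160 -0.97 and 0.41. For AT1G23130 and AT1G23140 it was 0.06 and 0.21, and for AT3G60980 and AT3G61010 0.03 and -0.03. With the mean of each accession in each array set removed, r was 0.16 for AT1G23130 and AT1G23140, 0.20 for AT1G67860 and AT1G67865, and -0.37 for AT2G32150 and AT2G32160. It was 0.65 for AT3G19515 and AT3G19520 and -0.0045 for AT3G60980 and AT3G61010. In this setting the smallest possible exact permutation p is 0.125, so none could pass.

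Individual arrays show where these values come from. AT1G23140 was highest in replicate 3 of both accessions, while AT1G23130 was highest in Cal-0 replicate 4 and Col-4 replicate 2. AT1G67865 was highest in replicate 4 of both accessions, and AT1G67860 was above its accession mean in those arrays. Col-4 replicate 4 held the highest signal of 6 of the 10 genes and lay above the Col-4 mean for 8 of them, with a median deviation of 0.19 on the log2 scale.

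**Figure D3:**
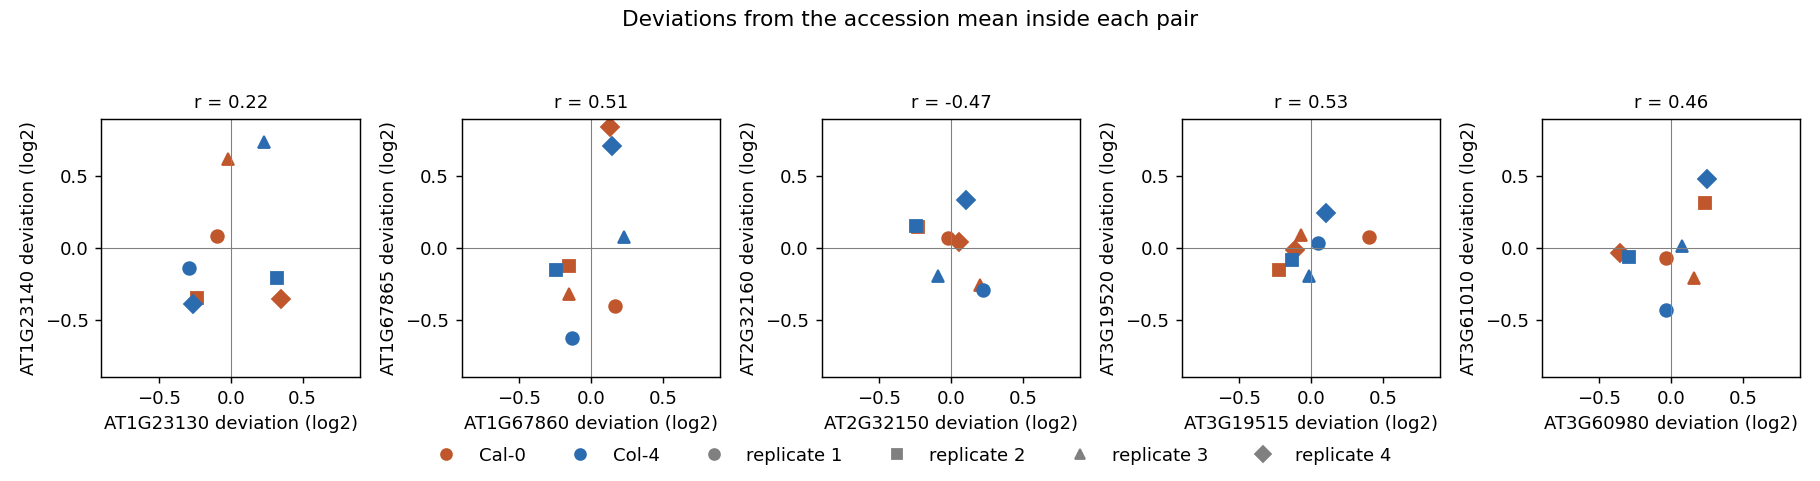
Deviation of each array from its accession mean on the scale of log2(signal + 16), first member on the horizontal and second on the vertical axis, for the 5 pairs, with Cal-0 and Col-4 in different colours and the replicate number as symbol. The correlation is positive in 4 pairs, at most 0.53, and negative (-0.47) for AT2G32150 and AT2G32160.

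Set beside other genes, the members of a pair had a median r of 0.46, from -0.47 to 0.53, and 4 of 5 were positive. Members of different pairs had a median of 0.12 over 40 combinations, from -0.74 to 0.82, with 25 positive. The highest of all was between genes of different chromosomes, AT2G32160 and AT3G61010 (r = 0.82). Over all 10019 tested neighbouring pairs with at most 3 annotated genes between them, the median r was 0.03 with quartiles of -0.34 and 0.40, and 52.0% were positive. All these values share the same 8 arrays and are given as a description.

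Both genes were called lower in Cal-0 in 19 of the 10019 neighbouring pairs, and the 5 pairs described here are among these 19. At least 1 gene was called lower in 548 neighbouring pairs, and both were in 3.47% of these. Where no annotated gene lay between, 8 of 2638 pairs had both called lower, 4 of them described here. The other 4, named after their values were seen, were AT2G43530 with AT2G43535 (r = 0.52), AT5G43430 with AT5G43440 (r = -0.77), AT3G23070 with AT3G23080 (r = 0.50) and AT4G12980 with AT4G12990 (r = -0.13). Among the 5 pairs described here the gap between the 2 differences had a median of 1.68, and among the other 14 pairs, some of which share a gene, 0.41. The gap comes from the values that chose the genes and was not matched for size. The mean difference of a pair ran from -2.53 to -1.14 among the 5 and from -1.95 to -0.77 among the 14. The correlation of deviations was positive in 4 of the 5 and in 5 of the other 14.

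**Figure D4:**
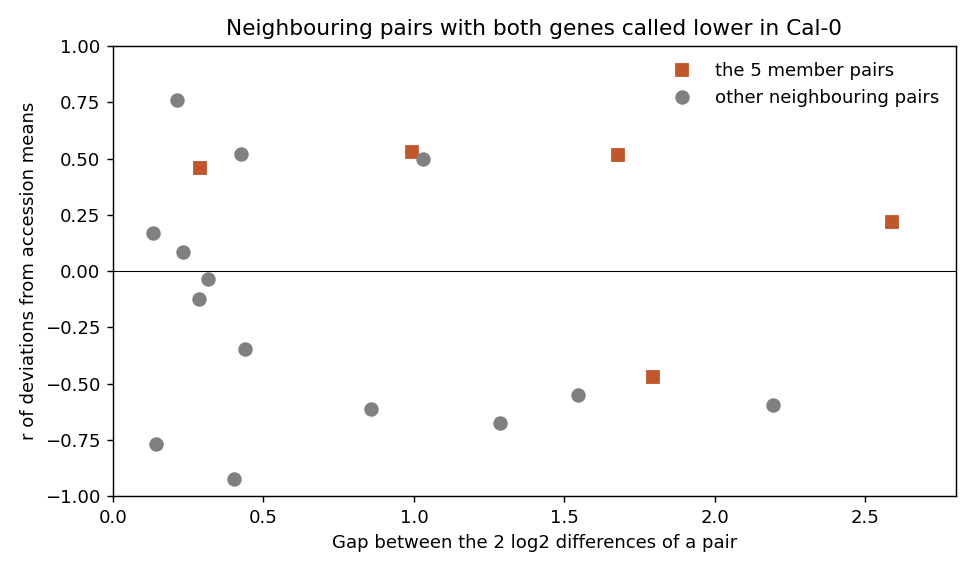
The 19 neighbouring pairs with both genes called lower in Cal-0, by the gap between their 2 log2 differences (horizontal axis) and the correlation of their deviations from accession means over 8 arrays (vertical axis). Squares are the 5 pairs described here, with gaps of 0.29 to 2.59, and circles the other 14, with gaps of 0.13 to 2.19.

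The genes on either side of the pairs, which had no part in the choice, were read from the same fit. Of the 51 genes within 5 places of a pair or between its members, 18 had a single-gene probe set and 12 were tested. None of the 12 was called by limma in either direction, against 4.29% of all tested probe sets. An unadjusted p under 0.05 was found for 2 of them, where 15.5% of all tested probe sets lay in either direction. Both were lower in Cal-0, as were 8.3% of all tested probe sets at that threshold. The differences of the 12 ran from -0.54 to 0.51 with a median of -0.12, and 7 were negative. Of the 12, 1 lay near AT1G23130 and AT1G23140 and 0 near AT3G60980 and AT3G61010. With so few genes tested, 0 calls say little about how far the low signals reach.

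AT1G23120, the neighbour of AT1G23130 and of the same latex protein family, averaged 30.2 ± 8.31 on Cal-0 arrays against 38.2 ± 14.5 on Col-4 arrays (a difference of -0.21, adjusted p = 0.715 by limma). AT1G67870, next to AT1G67865, averaged 440 ± 233 on Cal-0 arrays against 648 ± 305 on Col-4 arrays (a difference of -0.54, adjusted p = 0.556 by limma). The next gene, AT1G67880, differed by -0.49 (unadjusted p = 0.0148, limma adjusted p = 0.165), and AT1G67890 and AT1G67910 by -0.28 and -0.31. AT2G32170, which follows AT2G32160 and also encodes a methyltransferase of that type, averaged 144 ± 21.9 on Cal-0 arrays against 186 ± 21.5 on Col-4 arrays (a difference of -0.33, unadjusted p = 0.0409 and adjusted p = 0.292 by limma). HAT3.1 (AT3G19510), a homeodomain gene before AT3G19515, differed by 0.01, and AT3G19540 and AT3G19550 after the pair by -0.02 and 0.51. None of the 11 genes around AT3G60980 and AT3G61010 had a single-gene probe set here.

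**Figure D5:**
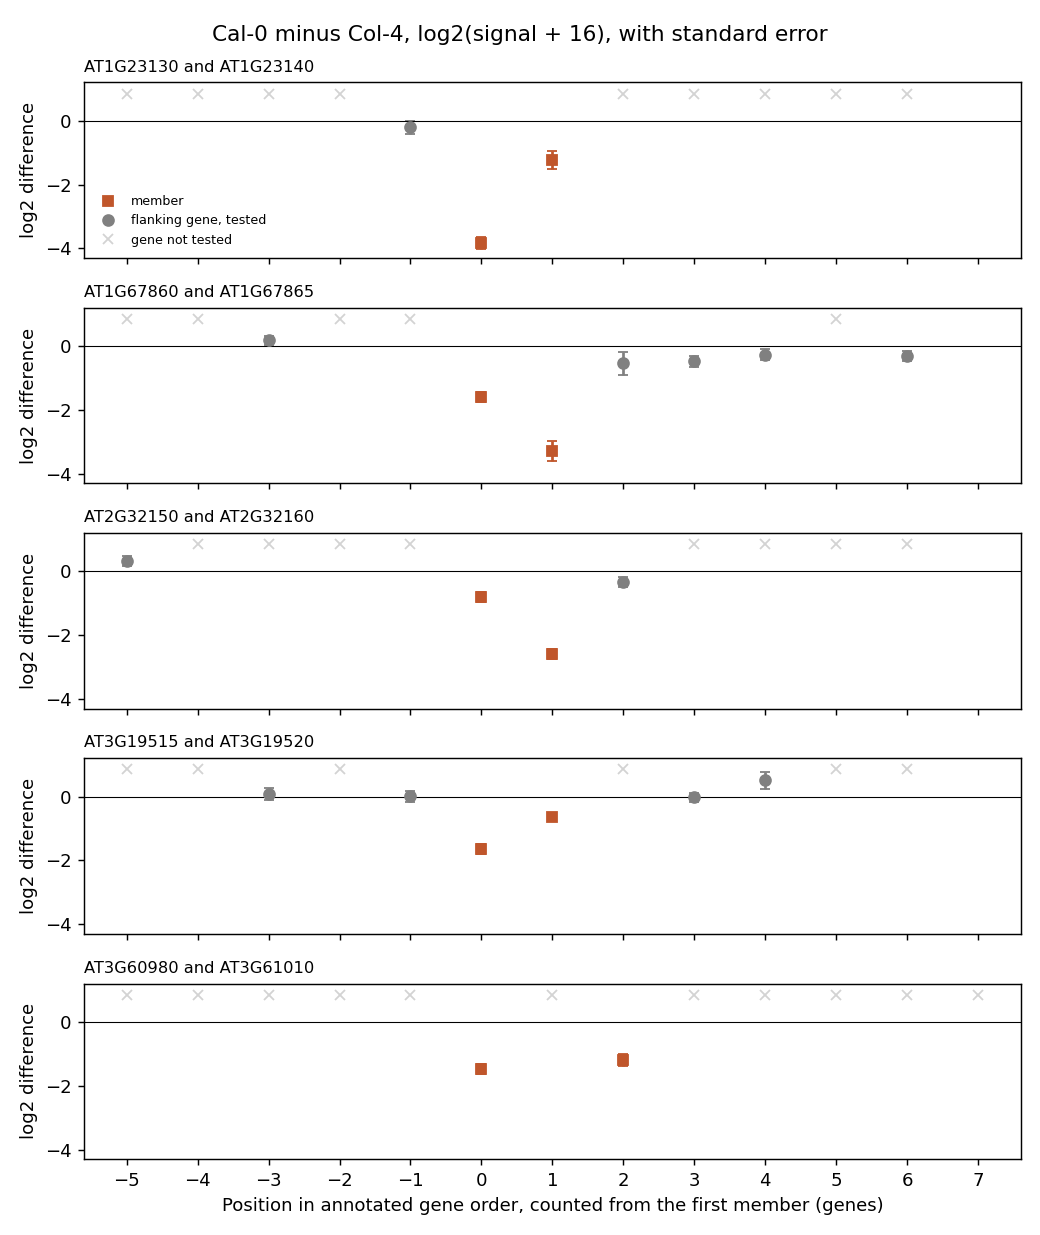
Cal-0 minus Col-4 on the scale of log2(signal + 16) with standard error, by place in the annotated gene order counted from the first member. Squares are the members and circles the tested flanking genes, between -0.54 and 0.51. Crosses along the top mark the places of genes that were not tested and carry no value.

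Relatives of AT1G23130 elsewhere in the genome were followed through a list of 28 other genes of the Bet v 1 or latex protein family. Of these, 17 had a single-gene probe set and 7 were tested. None was called by limma, with a median difference of 0.05, and 1 had an unadjusted p under 0.05. Over all tested probe sets 4.29% were called and 15.5% had such a p, so with 7 genes tested 0 calls say little about the family. AT1G70880 had the smallest p, at 71.4 ± 66.2 on Cal-0 arrays against 14.6 ± 16.1 on Col-4 arrays (a difference of 1.26, adjusted p = 0.284 by limma), and it passed without Cal-0 replicate 4 (a difference of 1.84, adjusted p = 0.0262 by limma). AT4G23670, another member, averaged 2515 ± 504 on Cal-0 arrays against 2132 ± 312 on Col-4 arrays.

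Of 9 other CAR genes, 5 had a single-gene probe set and 4 were tested, with a median difference of 0.32. None was called by limma, and 2 had an unadjusted p under 0.05, against 4.29% and 15.5% of all tested probe sets. With 4 genes tested, 0 calls say little about the family. AT5G37740 (CAR1) averaged 197 ± 47.2 on Cal-0 arrays against 116 ± 16.1 on Col-4 arrays (a difference of 0.67, adjusted p = 0.0598 by limma), and AT1G70790 (CAR9) averaged 75.1 ± 12.2 on Cal-0 arrays against 49.6 ± 3.83 on Col-4 arrays (a difference of 0.47, adjusted p = 0.0897 by limma). Both passed once the replicate block was added, at limma adjusted p of 0.0106 and 0.044, where 3.61% of all tested probe sets were called higher in Cal-0. Without Cal-0 replicate 3, AT5G37740 passed as well (adjusted p = 0.0462 by limma). AT1G70810 (CAR7) differed by -0.50 without passing.

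Other genes with a like pattern over the 8 arrays were found by Pearson's r between a gene's log2 signals and the mean of both members, among 3451 tested genes with a mean of at least 100 in the higher accession. For AT1G23130 and AT1G23140 these were AT3G25470 (r = 0.983) and AT1G76960 (r = 0.98), AT1G76960 lying at 2.27 ± 1.07 on Cal-0 arrays against 395 ± 128 on Col-4 arrays. For AT1G67860 and AT1G67865 they were AT5G37360 and AT3G23080 (both r = 0.988). AT2G32150 with AT2G32160 and AT3G19515 with AT3G19520 had the same closest genes, the cell wall protein gene ECS1 (r = 0.996 and 0.989) and AT5G52810 (r = 0.995 and 0.982). ECS1 averaged 859 ± 139 on Cal-0 arrays against 6788 ± 1695 on Col-4 arrays, and AT5G52810 averaged 29.3 ± 2.13 on Cal-0 arrays against 101 ± 7.75 on Col-4 arrays. For AT3G60980 and AT3G61010 they were AT2G25510 (r = 0.979) and AT4G02540 (r = 0.977). None of these 8 genes is a near neighbour of the pair it resembles, and the shared accession difference enters each r.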

How the data were processed

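The authors deposited 1 linear intensity per probe set for each of 8 ATH1 arrays. The submitters' processing notes name MAS5, without a version or settings. No detection calls were used. Signals were transformed as log2(signal + 16). Those 15165 probe sets whose mean over the arrays reached 25 were tested with limma 3.58.1 under R 4.3.3 (lmFit, eBayes, two-sided), Cal-0 against Col-4, without covariate, and p-values were adjusted over all of them (Benjamini-Hochberg, threshold 0.05). Further fits tested the array sets and their interaction with accession. The steps were tested on simulated data.

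Controls aside, 13513 of 22746 probe sets had 1 gene in the platform annotation, 503 had several and 8730 were not in that table. Names, chromosomes and gene order came from RefSeq (TAIR10.1). The files name no build, so no coordinates are given. A gene with several probe sets was represented by that of the highest mean signal. No member's probe set used here carries a cross-hybridisation suffix.

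Co-variation was tested by exact permutation within accessions in Python 3.11.15. Same-numbered arrays of the accessions deviated together over all tested probe sets (correlations of 0.278, 0.376, 0.478 and 0.403). The numbers were therefore taken as pairs, which the labels do not state, and the replicate block is an alternative. Within arrays 1 to 4 unlike numbers correlated as well, at 0.273 and 0.382. The members and lists were chosen with earlier results of these data known. Named genes were the members, called flanking genes, up to 4 called family members or else the one of smallest p, and the 2 genes most like each pair; further flanking and family genes, chosen after their values were seen, are named for context.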

Additional observations from a re-analysis of the deposited data

How the results depend on the processing

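Settings tried were a pseudocount of 1 or 50, testing every probe set or those with a mean of 100 or more, quantile normalization, the replicate block, the array set block, an intensity trend with robust estimation, each array left out, and, added after seeing the data, the 3′ to 5′ ratio as a covariate and the removal of the 2 farthest arrays. None of the 164 member differences under them changed sign, and 12 moved by more than the spread between replicates, all with another pseudocount. Since the accessions did not overlap in any member, no sign could change with an array left out or another pseudocount. These differences hold the contrast that chose the genes and are a description. At a mean signal of at least 100, 4 members were tested, and these 4 were called. The count of called probe sets, 651 at first, was 1299 with the replicate block, 1095 with the array set block, 406 at a mean signal of at least 100, and 412 to 672 with single arrays left out, the lowest without Cal-0 replicate 1 (412) and Col-4 replicate 2 (413). The count for the array sets, 1217, was 656 without a filter, 783 with a pseudocount of 1 and 155 to 788 with single arrays left out, the lowest without Cal-0 replicate 2; the replicate block could not be fitted there, because the numbers lie within the sets. The interaction had 0 calls, and 0 to 3 with single arrays left out, the 3 without Col-4 replicate 3. The flanking genes had 0 calls in all 17 alternatives, which says little with so few of them tested. The latex protein list had 0 calls, and 0 to 1 with single arrays left out. The CAR list had 0 calls at first and 2 with the replicate block. It had 1 each with the array set block, the intensity trend and a mean signal of at least 100. It also had 1 each with a pseudocount of 50 and the 3′ to 5′ covariate, and that 1 was AT5G37740 each time. With single arrays left out it had 0 to 1, the 1 without Cal-0 replicate 3. The causes were not tested.

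With single arrays left out, r ran from -0.079 (without Col-4 replicate 3) to 0.54 for AT1G23130 and AT1G23140, from 0.41 to 0.75 for AT1G67860 and AT1G67865, from -0.87 to -0.24 for AT2G32150 and AT2G32160, from 0.38 to 0.79 for AT3G19515 and AT3G19520, and from 0.18 to 0.61 for AT3G60980 and AT3G61010, whose r was -0.0045 with deviations from the means of accession and array set. With the replicate block, which leaves 4 differences, r was 0.67, 0.93, -0.51, 0.37 and 0.79 in the order of the pairs above. No correlation passed with single arrays left out or with the replicate block, whose 4 differences leave little room to pass. The correlations without the 2 farthest arrays were not tested. The replicate block changed no call beyond those given. No detection calls were used, so how far weak Cal-0 signals stood above background is not known.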
